A study of Mus musculus with 15 samples.

Results

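A set of 9 genes of fatty acid oxidation was measured in cardiac and hepatic allografts of the mouse. They were Fabp3, Cpt1a, Cpt1b, Cpt2, Acadvl, Acadl, Acadm, Hadha and Hadhb, and they were chosen by name, with every probe that carries a transcript of the gene. The array held 11 probes for these 9 genes, of 41174 probes for 32171 genes in all. Probes matched 18217 RefSeq symbols, and an unmatched probe was counted as a gene under the array's own name for it. Shares of all genes below are over this whole set, which includes probes not well above background. In 9 of 9 genes, the brightest probe lay well above background on all 15 arrays, and a gene was read from that probe.

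Each of 5 groups held 3 single-colour arrays of total RNA from male mice. Cardiac allografts were hearts of C57BL/10 (B10, H-2b) donors placed in the abdomen of CBA (H-2k) recipients, which kept their own heart, and were taken on postoperative day 5 (POD5). Hepatic allografts were B10.BR (BR, H-2k) livers in B10.D2 (D2, H-2d) recipients whose own liver was replaced, taken on POD5 or POD8. Heart and liver controls are described as normal tissue in the labels and methods and as isografts elsewhere in the study, so they are called controls here, and their strain and the age of the mice were not given in the sources used here. Organ, strain combination and operation differ together between the cardiac and hepatic series and cannot be told apart. The labels number the arrays of a group without saying that each came from its own animal. The study's methods name 3 cardiac case samples and 3 normal tissues of each organ, and 3 mice per time point for quantitative RT-PCR. They do not tie each array to a mouse, so a p-value measures the spread between these samples, which may be technical.

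Mitochondrial fatty acid oxidation breaks long-chain acids down to acetyl-CoA and is the main fuel supply of the adult heart. In the liver it also feeds ketone body synthesis in fasting. Acids are bound in the cytosol by binding proteins such as FABP3, passed through the mitochondrial membranes as carnitine esters by the CPT enzymes, and shortened in repeated rounds by acyl-CoA dehydrogenases and the trifunctional protein. CPT1, in its liver form (Cpt1a) and its muscle form (Cpt1b), is the step that malonyl-CoA blocks.

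Hadha and Hadhb, which code for the alpha and beta subunits of the trifunctional protein, lie head to head on mouse chromosome 5. In RefSeq (GRCm38.p6), Hadha lies at chr5:30119423-30154980 and Hadhb at chr5:30155253-30184593 on the opposite strand, with 272 bases between their starts. The 250 bases before the Hadhb start are shown because both genes are read outward from them, and those of Acadm, Acadvl and Cpt1a because they were the members with the letters AGGTCA, the core of many nuclear receptor sites. Capitals mark AGGTCA and GGGCGG, the core of GC boxes, or their complements TGACCT and CCGCCC.
Hadhb upstream, chr5:30155003-30155252, plus strand: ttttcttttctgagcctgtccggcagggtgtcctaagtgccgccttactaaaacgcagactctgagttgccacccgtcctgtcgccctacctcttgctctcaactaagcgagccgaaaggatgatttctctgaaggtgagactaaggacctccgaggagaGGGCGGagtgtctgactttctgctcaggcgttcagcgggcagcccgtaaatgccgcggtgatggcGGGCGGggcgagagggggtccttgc
Acadm upstream, chr3:153944644-153944893, minus strand: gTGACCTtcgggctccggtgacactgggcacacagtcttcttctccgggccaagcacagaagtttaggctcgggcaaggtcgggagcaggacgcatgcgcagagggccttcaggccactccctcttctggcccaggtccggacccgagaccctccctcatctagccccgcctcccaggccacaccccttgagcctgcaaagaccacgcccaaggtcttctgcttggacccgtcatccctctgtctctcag
Acadvl upstream, chr11:70015429-70015678, minus strand: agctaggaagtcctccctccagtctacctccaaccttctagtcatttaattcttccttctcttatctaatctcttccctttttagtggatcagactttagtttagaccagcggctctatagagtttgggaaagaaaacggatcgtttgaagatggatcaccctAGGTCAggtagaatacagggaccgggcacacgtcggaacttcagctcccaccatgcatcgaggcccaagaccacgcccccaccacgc
Cpt1a upstream, chr19:3323051-3323300, plus strand: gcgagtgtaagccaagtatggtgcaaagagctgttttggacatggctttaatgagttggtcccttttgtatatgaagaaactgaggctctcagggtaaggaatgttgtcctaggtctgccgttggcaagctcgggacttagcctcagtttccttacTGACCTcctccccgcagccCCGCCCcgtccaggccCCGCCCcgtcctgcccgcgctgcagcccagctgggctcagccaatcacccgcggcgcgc

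AGGTCA stood in 3 of the 8 member windows in RefSeq's table and in 14.0% of all 32851 windows of the same length. GGGCGG stood in 5 of 8 (Acadl, Cpt1a, Cpt2, Hadha and Hadhb) and in 32.7% of all. CCAAT was found before Cpt1a and in 33.8% of all windows, TATAAA in 0 of 8 members and 12.4% of all, and the direct repeat of AGGTCA with a spacer of 1 base (DR1, which contains AGGTCA) in 0 of 8 and 0.0335% of all. Each motif was searched on both strands. The window of Cpt1a lies within the span that RefSeq gives the gene, which has several transcripts, and so precedes a start other than the first. The windows of Hadha and Hadhb overlap, so their GGGCGG matches share a site. The other members lie at chr1:66830839-66863309 (Acadl), chr3:153922353-153944643 (Acadm), chr11:70010183-70015428 (Acadvl), chr19:3322326-3385735 (Cpt1a), chr15:89416405-89425862 (Cpt1b), chr4:107903982-107923589 (Cpt2) and chr4:130308738-130315463 (Fabp3).

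Values below are log2 signals after quantile normalization over the 15 arrays, each probe on its own scale, and differences are on the log2 scale with their standard error (SE) from limma. Each SE rests on the spread of a probe over all 5 groups, not over the compared groups alone. A gene was called when its adjusted p was below 0.05. Before normalization, the arrays differed in brightness: the 75th percentile of signal was 92.1 to 226 in the liver controls, 338 to 478 and 384 to 454 in the hepatic allografts of POD5 and POD8, 394 to 711 in the cardiac allografts and 1021 to 1247 in the heart controls. Scaling to that percentile in place of quantile normalization moved the median difference of all genes from 0.03 to 0.57 in the cardiac comparison, from -0.08 to -0.42 in the hepatic one at POD5, from -0.11 to -0.53 at POD8, and from -0.10 to -0.97 between the controls. The share of higher genes among those called moved with it, from 48% to 75.8% (cardiac), 52.4% to 29.5% (POD5), 57.3% to 18.1% (POD8), 48.4% to 28.4% (controls) and 49.4% to 82.6% (cardiac difference minus hepatic difference). Tissue labels were checked on markers. The cardiomyocyte genes Myh6, Myl2, Mb and Ryr2 were well above background on 0 of 9 liver arrays, and the hepatocyte genes Alb, Apoa1, Ttr and Hnf4a on 0 of 6 heart arrays. These genes were picked from longer lists after their values were seen, so this statement does not cover the other markers. Over all 12 cardiomyocyte markers the summed signal was 1095 to 2422 on the liver arrays. Of these 12, 1 was called higher and 2 lower in hepatic allografts at POD5, and 0 higher and 1 lower at POD8. Over all 11 hepatocyte markers the summed signal was 5017, 728 and 6664 in the heart controls and 348 to 572 in the cardiac allografts, and 3 were called lower and 2 higher in the allografts. Heart controls differed among themselves in adipocyte markers, whose summed signal was 5204, 24.5 and 330 in replicates 1, 2 and 3.

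In the cardiac allografts at POD5, 6 of the 9 genes fell and none rose. Both subunits of the trifunctional protein, 3 acyl-CoA dehydrogenases and Cpt2 were lower than in the heart controls, by 1.58-fold to 3.16-fold. Among all genes, 14.8% were called lower and 13.6% higher in this comparison. Groups without overlap and lower in allografts were found for the same 6 genes, and for 24.2% of all genes. The median difference of the 9 genes was -0.96, against 0.03 over all 32171 genes. Fabp3, Cpt1a and Cpt1b were not called.

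Hadha, whose product catalyses the hydratase and long-chain hydroxyacyl-CoA dehydrogenase steps, stood at 11.55, 12.56 and 11.80 on the 3 heart control arrays and at 10.35, 10.37 and 10.20 on the cardiac allograft arrays. Every allograft lay more than 1 log2 unit below the lowest control. It fell by 1.66 (SE 0.25, adjusted p = 0.000432, limma), the largest fall among the 9 genes. Its partner Hadhb, the thiolase subunit, stood at 14.72, 15.54 and 14.99 in controls and at 14.19, 13.84 and 14.09 in allografts. It fell by 1.04 (SE 0.19, adjusted p = 0.00135), with no overlap between the groups.

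The dehydrogenases open each round of oxidation and differ in the chain length they take. Acadm, the medium-chain enzyme, read 14.96, 15.71 and 15.09 in heart controls and 14.39, 13.90 and 14.11 in allografts. Its fall of 1.12 (SE 0.20, adjusted p = 0.00143) was seen in 3 of 3 allografts. For Acadl, the long-chain enzyme, controls read 12.82, 13.66 and 13.12 and allografts 12.45, 11.82 and 12.11. Acadl fell by 1.08 (SE 0.22, adjusted p = 0.0034). Acadvl, the very-long-chain enzyme of the inner membrane, read 15.29, 16.11 and 15.59 in controls and 14.93, 14.49 and 14.69 in allografts, and fell by 0.96 (SE 0.19, adjusted p = 0.00279). In all 3 genes the groups did not overlap, replicate 2 was the highest control and replicate 2 the lowest allograft.

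Of the 3 carnitine enzymes only Cpt2 was called. Cpt2, the inner-membrane enzyme that releases acyl-CoA in the matrix, read 13.20, 13.92 and 13.34 in heart controls and 13.03, 12.67 and 12.78 in allografts. It fell by 0.66 (SE 0.20, adjusted p = 0.0274), and the gap between the groups was narrow. Cpt1b, the muscle form of the regulated outer step, read 11.59, 12.68 and 11.95 in controls and 11.61, 11.24 and 11.01 in allografts. Its groups overlapped and the difference of -0.79 (SE 0.52, adjusted p = 0.289) had a 95% interval from -1.92 to 0.34. That interval is widened by the liver controls, whose SD was 1.367, against 0.558 in heart controls and 0.305 in cardiac allografts. Cpt1b stayed uncalled here in 20 of 20 other settings. Cpt1a read 10.19, 9.82 and 10.40 in controls and 10.23, 10.22 and 10.41 in allografts, a difference of 0.15 with an interval from -0.35 to 0.65 (adjusted p = 0.701). Fabp3, the heart-type cytosolic carrier, read 17.08, 17.13 and 17.13 in controls and 16.94, 17.34 and 16.74 in allografts. That difference was -0.11 (adjusted p = 0.75, interval -0.53 to 0.31).

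**Figure D1:**
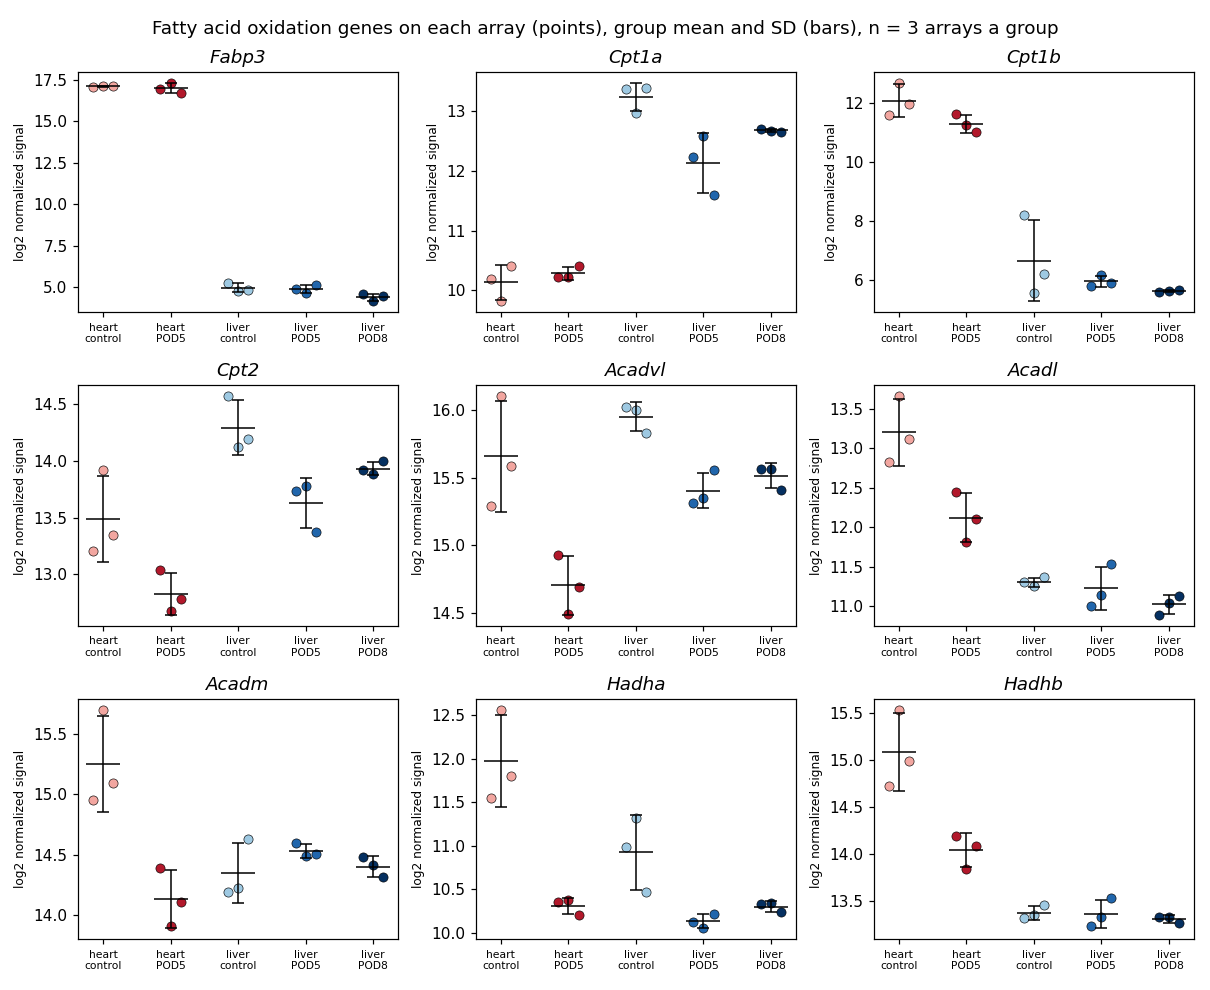
Log2 normalized signal (y axis, a scale of its own for each gene) of the brightest probe of the 9 genes on every array (points), by group (x axis), with the group mean (long bar) and SD (whiskers), n = 3 arrays a group. Hadha, Hadhb, Acadm, Acadl, Acadvl and Cpt2 have cardiac allograft points below all heart control points, while Fabp3 and Cpt1a overlap between those groups.

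All cardiac allografts were on 1 slide and all heart controls on another, scanned at another time, so an effect of the slide cannot be told apart from that of the graft here. The calls depended on the test. With a Bonferroni adjustment over all 41003 probes 0 of the 6 were called by limma, by the standardized fold change (SFC) or by the methods' t-test, and with Benjamini-Hochberg adjustment the methods' t-test called Hadha alone (adjusted p = 0.0316). Without heart control replicate 2, 5 genes were called and Cpt2 was not (-0.45, adjusted p = 0.113). Cpt2 was likewise not called without cardiac allograft replicate 2 or 3, with the slide as a random block (adjusted p = 0.159), or from the 6 heart arrays alone (adjusted p = 0.0814). An exact permutation test of 3 against 3 arrays cannot give a two-sided p below 0.1.

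Markers of other cells moved beside these genes. Cardiomyocyte markers were called lower in 5 of 12 and higher in 0 of 12, with a median of -0.90, and their summed signal was 972700 to 1185000 in allografts against 1392000 to 1576000 in controls. Of the endothelial markers 4 of 5 fell, with sums of 1725 to 2805 against 6349 to 7196, and of the fibroblast markers 3 of 4, with sums of 83240 to 99950 against 234400 to 361900. T cell markers rose in 7 of 7, from a summed 413 to 616 in controls to 10030 to 15340 in allografts. Macrophage markers rose in 0 of 6 and fell in 1 (Mrc1), with sums of 24040 to 29300 in allografts and 25260 to 37370 in controls. Their part in the falls of the fatty acid oxidation genes was not tested. In such bulk samples, fewer cells of a type and less RNA per cell cannot be told apart.

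In the hepatic allografts at POD5, 2 of the 9 genes fell, Cpt1a and Cpt2, and none rose. Over all genes 7.17% were called lower and 7.89% higher. The median of the 9 differences was -0.55, and -0.08 over all genes. Cpt1a, the liver form and the rate-limiting entry of long-chain acids, read 13.36, 12.97 and 13.38 in liver controls and 12.24, 12.58 and 11.59 in POD5 allografts. It fell by 1.104 (SE 0.23, adjusted p = 0.0075), and every allograft lay below every control. Cpt2 read 14.57, 14.12 and 14.19 in controls and 13.73, 13.78 and 13.37 in allografts, and fell by 0.67 (SE 0.20, adjusted p = 0.0442).

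Hadha and Acadvl were also below the controls on every POD5 array but missed the threshold. Hadha read 10.99, 11.32 and 10.47 in liver controls and 10.12, 10.06 and 10.22 in allografts, a difference of -0.79 (SE 0.25, adjusted p = 0.0517). Acadvl read 16.02, 16.01 and 15.83 in controls and 15.31, 15.35 and 15.56 in allografts, a difference of -0.55 (SE 0.19, adjusted p = 0.0737). Groups without overlap in this direction were found for 4 of the 9 genes and for 19.7% of all genes. For Hadhb, controls read 13.31, 13.35 and 13.46 and allografts 13.23, 13.33 and 13.53, and the difference was -0.01 (interval -0.41 to 0.39). Acadl read 11.31, 11.25 and 11.37 in controls and 11.004, 11.15 and 11.54 in allografts, a difference of -0.08 (adjusted p = 0.866). Acadm was at 14.19, 14.22 and 14.63 in controls and 14.60, 14.49 and 14.50 in allografts, a difference of 0.18 (adjusted p = 0.595), and it alone of the 9 had a positive sign.

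Cpt1b and Fabp3 are minor forms in liver. Cpt1b read 8.20, 5.58 and 6.21 in liver controls, so that replicate 1 stood well above the other controls, and 5.82, 6.17 and 5.90 in POD5 allografts. The difference of -0.70 (adjusted p = 0.398) turned to 0.07 without liver control replicate 1. Fabp3 read 5.28, 4.78 and 4.84 in controls and 4.91, 4.69 and 5.15 in allografts, a difference of -0.05 (adjusted p = 0.907).

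The hepatic POD5 allografts shared no slide with the liver controls, so slide and graft cannot be told apart in this comparison either. Leaving out any single array of the 2 groups except liver control replicate 3 left 1 gene, Cpt1a, and leaving out that array gave 3, with Hadha added (-1.01, adjusted p = 0.013). From the 6 arrays alone, or by SFC, the methods' t-test or limma with Bonferroni adjustment, 0 genes were called, and with the slide as a random block 1 was. Scaling to the 75th percentile called 4, all lower, beside 16.7% of all genes called lower under that scaling. Hepatocyte markers were called in 0 of 11 at either time, with medians of 0.04 at POD5 and 0 at POD8 and sums of 1012000 to 1102000 over the 9 liver arrays. T cell markers rose in 5 of 7 at both times, from sums of 363 to 485 in controls to 6856 to 11440 at POD5 and 6084 to 7639 at POD8, and macrophage markers rose in 2 of 6 at POD5 and 3 of 6 at POD8, from sums of 2784 to 10380 to 12030 to 18120 and 19880 to 19960. Of the fibroblast markers 1 of 4 fell at POD5 and 2 of 4 at POD8, from sums of 26530 to 37610 to 16620 to 23680 and 11680 to 19980. Of the endothelial markers 0 of 5 were called at POD5 and 1 rose at POD8, with sums of 2668 to 3755 in controls, 3041 to 4951 and 3443 to 3765. Their part in the differences was not tested.

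At POD8, 0 of the 9 genes were called by limma, while 4.96% of all genes were called lower and 6.64% higher. At an unadjusted p below 0.05 there were 4 (Fabp3, Hadha, Cpt1a and Acadvl), beside 26.4% of all genes, and SFC and the methods' t-test called 0. Their differences were -0.57 for Fabp3 (SE 0.19, adjusted p = 0.0817), -0.62 for Hadha (SE 0.25, adjusted p = 0.134), -0.56 for Cpt1a (SE 0.23, adjusted p = 0.142) and -0.44 for Acadvl (SE 0.19, adjusted p = 0.166). Cpt1a stood at 12.70, 12.67 and 12.66 on the POD8 arrays, below all controls and above all POD5 arrays. Fabp3 stood at 4.57, 4.17 and 4.46, below all controls.

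The other 5 genes at POD8 ranged in difference from -1.03 for Cpt1b, whose arrays read 5.59, 5.64 and 5.68, to 0.05 for Acadm, whose arrays read 14.48, 14.41 and 14.31. Cpt2 was at 13.92, 13.88 and 14.00 (-0.36, adjusted p = 0.27), Acadl at 10.90, 11.05 and 11.14 (-0.28, adjusted p = 0.445) and Hadhb at 13.33, 13.33 and 13.26 (-0.07, adjusted p = 0.869). Acadl, Acadvl, Cpt1a, Cpt2, Fabp3 and Hadha had POD8 arrays that all lay below the controls, 6 of 9 beside 19.9% of all genes. On the slide that held 2 POD8 allografts and 2 controls, the differences ran from -1.27 (Cpt1b) to 0.24 (Acadm), with 0 called. Scaling to the 75th percentile called 3 lower, namely Cpt1a, Cpt2 and Acadvl, beside 29.5% of all genes called lower under that scaling, and leaving out liver control replicate 3 called 1, Hadha (-0.84, adjusted p = 0.0354).

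Between the hepatic time points 0 of 9 genes were called by limma, beside 0.0373% of all genes, and SFC and the methods' t-test called 0. At an unadjusted p below 0.05 there were 2, beside 9.31% of all genes. Cpt1a was 0.54 higher at POD8 than at POD5 (SE 0.23, adjusted p = 0.501), with an interval from 0.04 to 1.04. The difference of Fabp3 was -0.52 (SE 0.19, adjusted p = 0.44). Both comparisons with controls use the same 3 control arrays.

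**Figure D2:**
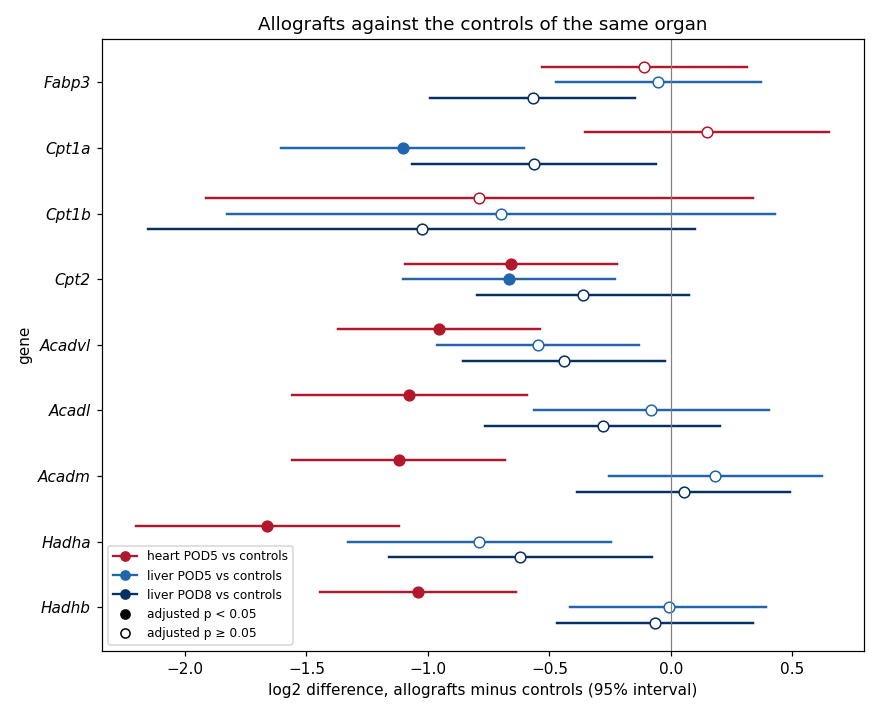
Log2 difference of allografts from the controls of their organ (x axis, point) with its 95% interval from limma (line) for the 9 genes (y axis), in 3 comparisons of 3 against 3 arrays; filled points have an adjusted p below 0.05. The 6 cardiac and 2 hepatic POD5 points are filled, all left of 0, and no POD8 point is.

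The cardiac and hepatic differences at POD5 were set against each other in the same fit, as the cardiac difference minus the hepatic difference. Of the 9 genes 4 differed, beside 18.1% of all genes. For Acadm, Acadl and Hadhb the difference from controls was lower in the heart, and for Cpt1a it was lower in the liver. Acadm differed by -1.30 (SE 0.28, adjusted p = 0.00968), Hadhb by -1.03 (SE 0.26, adjusted p = 0.0193) and Acadl by -0.997 (SE 0.31, adjusted p = 0.0468). Cpt1a differed by 1.25 (SE 0.33, adjusted p = 0.0213), since it fell in the liver grafts and had a difference of 0.15 in the heart grafts. Hadha had a negative difference in grafts of both organs, though it was not called in the liver (-0.79, adjusted p = 0.0517). The difference of -0.87 between the organs (SE 0.35, adjusted p = 0.106) was not called either. The remaining 4 genes had adjusted p-values from 0.313 to 0.989.

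Acadl was the least stable of these 4. It lost its call in 15 of 23 other settings, which included 9 of the 12 that left out an array. With scaling to the 75th percentile, only Cpt1a kept its call, beside 43.7% of all genes called, and Acadm (-0.79, adjusted p = 0.0922), Acadl (-0.75, adjusted p = 0.116) and Hadhb (-0.57, adjusted p = 0.232) did not. The heart controls were alone on their slide, and the cardiac allografts shared theirs with 1 hepatic array (POD5 replicate 3), so allografts and controls shared no slide in either organ and a slide effect cannot be told apart from these differences.

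**Figure D3:**
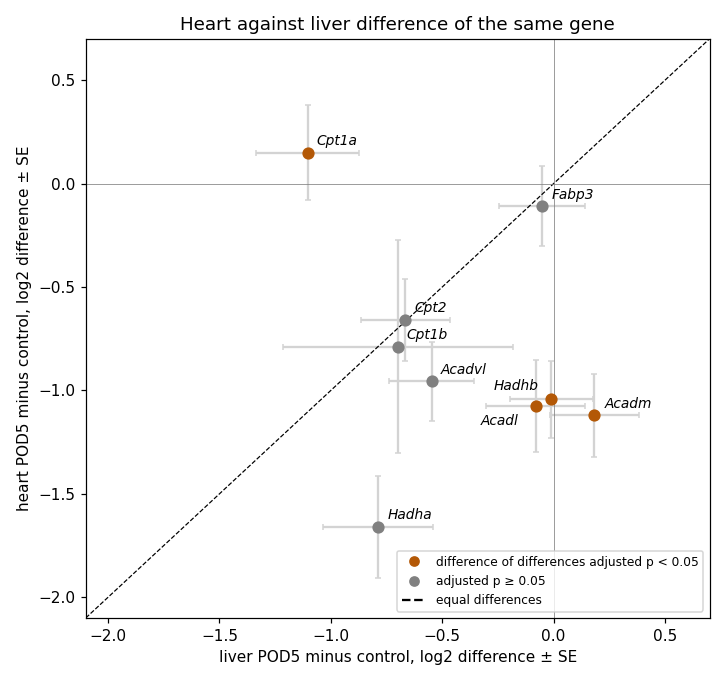
Log2 difference from controls in cardiac POD5 allografts (y axis) against that in hepatic POD5 allografts (x axis) for the 9 genes, with SE bars; the dashed line marks equal differences and colour marks a difference between the organs with an adjusted p below 0.05. Acadm, Acadl and Hadhb lie near 0 on the hepatic axis and near -1.1 on the cardiac axis, Cpt1a lies at -1.104 on the hepatic axis, and Cpt2 lies on the line.

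In the control tissues 6 of the 9 genes were higher in heart than in liver and 2 were lower. Over all genes 25.8% were called higher and 27.5% lower. Fabp3 was higher by 12.15 (SE 0.19, adjusted p = 1.98e-13). Cpt1b was higher by 5.41 (SE 0.52, adjusted p = 2.5e-06) and Cpt1a had a difference of -3.10 (SE 0.23, adjusted p = 2.59e-07), so the muscle and liver forms of CPT1 ran in opposite directions. Acadl was higher by 1.89, Hadhb by 1.71, Hadha by 1.05 and Acadm by 0.91 (adjusted p = 0.00219), and Cpt2 had a difference of -0.81 (adjusted p = 0.00462). Acadvl differed by -0.29 (adjusted p = 0.214). With scaling to the 75th percentile Acadm lost its call (0.20, adjusted p = 0.498) and Acadvl was called lower in heart (-1.20, adjusted p = 0.00188).

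In the order of group means, Fabp3, Cpt1b, Acadl and Hadhb had both heart groups above all 3 liver groups, and Cpt1a and Cpt2 had both below. In Acadl, cardiac allografts at 11.82 to 12.45 still lay above the highest liver array at 11.54. Acadm in cardiac allografts (13.90 to 14.39) overlapped the liver controls (14.19 to 14.63), and Hadha in cardiac allografts (10.20 to 10.37) overlapped the hepatic allografts of POD8 (10.24 to 10.34). Acadvl in cardiac allografts (14.49 to 14.93) lay below every liver array, the lowest of which was 15.31.

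Cpt1a and Cpt1b each had another, dimmer probe. On that of Cpt1a, cardiac allografts read 7.93, 7.76 and 8.03 and heart controls 7.31, 7.20 and 7.49, a difference of 0.58 (SE 0.32, adjusted p = 0.212). These heart groups did not overlap. The SE pools all groups, with an SD of 0.136 in cardiac allografts, 0.15 in heart controls and 0.786 at hepatic POD5. Liver controls read 10.24, 10.53 and 11.06 and POD5 allografts 9.84, 10.22 and 8.71, a difference of -1.02 (SE 0.32, adjusted p = 0.0538). The difference between the organs was called on this probe too, at 1.59 (SE 0.46, adjusted p = 0.0327). The other Cpt1b probe was well above background on 1 of 3 liver controls and on 2 of 3 arrays at each hepatic time, so its liver values are partly bounds. Its difference between the organs was 0.78 (adjusted p = 0.451) against -0.09 on the brightest probe (adjusted p = 0.947), and from POD5 to POD8 it differed by 0.05 against -0.33. Neither sign was called on either probe.

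Beyond the 9 genes, 78 genes of fatty acid metabolism in 9 lists were tested in the same fit. In the cardiac allografts 39 of the 78 fell and 5 rose, beside 14.8% and 13.6% of all genes, and their median was -0.78. At POD5 in the liver 17 fell and 5 rose, beside 7.17% and 7.89%, and at POD8 9 fell and 3 rose, beside 4.96% and 6.64%. Leaving out any single array gave 31 to 38 falls in the heart, 7 to 15 in the liver at POD5 and 5 to 10 at POD8. Scaling to the 75th percentile gave 35, 29 and 22, beside 12.8%, 16.7% and 29.5% of all genes called lower under that scaling. At POD8 the median of the list was then -0.50, and that of all genes -0.53. At hepatic POD5 the falls numbered 7, 11 and 10 without allograft replicates 1, 2 and 3 and 10 and 8 without liver control replicates 1 and 2. At POD8 they numbered 6 and 5 without allograft replicates 1 and 2.

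Other enzymes of mitochondrial beta-oxidation were tested as a list. Of 14, 12 fell in cardiac allografts and 0 rose, beside 14.8% and 13.6% of all genes, with a median of -0.91. Leaving out single arrays gave 9 to 12 falls. Acad11 lost its call in 5 of 6 such fits, and Acads and Hadh in 2 each. Scaling to the 75th percentile gave 9 falls, beside 12.8% of all genes called lower under that scaling. Decr1, which prepares polyunsaturated chains, fell by 2.30 (SE 0.26, adjusted p = 6.09e-05). Acaa2, the mitochondrial 3-ketoacyl-CoA thiolase, fell by 1.66 and Etfdh, which passes the electrons of the dehydrogenases to ubiquinone, by 1.49. Acad9 and Acad10 were not called. In the liver 2 of the 14 fell at POD5, Eci2 by 0.88 (SE 0.15, adjusted p = 0.00255) and Etfb by 0.73, and 1 at POD8, again Eci2, by 0.78 (SE 0.15, adjusted p = 0.00641). Eci2 is an enoyl-CoA isomerase of mitochondria and peroxisomes.

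Uptake, activation and the carnitine cycle were mixed. In the heart Cd36, the main fatty acid transporter of muscle, fell by 2.31 (SE 0.19, adjusted p = 4.91e-06), while the acyl-CoA synthetase Acsl5 rose by 1.83 (SE 0.17, adjusted p = 1.48e-05). Of 12 genes of uptake and activation 4 fell and 1 rose in the heart, 4 fell and 2 rose in the liver at POD5, and 2 fell and 2 rose at POD8. Without single arrays there were 1 to 3 falls at POD5, fewest without liver control replicate 2, and 1 to 3 at POD8. Fabp4, the carrier of adipocytes and macrophages, rose in the liver by 1.54 at POD5 and by 1.58 at POD8 (SE 0.25, adjusted p = 0.0017), and fell by 1.71 in the heart. Acsl6 was among the genes called lower in liver at both times, but it was not well above background on any array of those groups and has no fold. Crat, the carnitine acetyltransferase, fell in the heart by 1.19 (SE 0.32, adjusted p = 0.0153). Slc22a5, the carnitine transporter, fell in the liver by 0.91 at POD5 (SE 0.18, adjusted p = 0.00618) and by 0.95 at POD8 (adjusted p = 0.00586).

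Among the ketone body genes Oxct1, which lets tissues other than hepatocytes burn ketone bodies, rose in the liver by 2.10 at POD5 (SE 0.34, adjusted p = 0.00178) and by 1.72 at POD8 (adjusted p = 0.00719). The other genes of that list are not reported here. Of the 3 malonyl-CoA genes, Mlycd, which removes malonyl-CoA, fell in the heart by 1.14 (SE 0.21, adjusted p = 0.00161) and in the liver at POD5 by 0.72 (adjusted p = 0.0387).

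Peroxisomal genes fell in 6 of 13 and rose in 2 in the heart, where Abcd2 was not well above background in allografts and controls were at least 2.46-fold higher (adjusted p = 0.0272). In the liver 5 fell and 1 rose at POD5, and 3 fell at POD8. At POD5 the falls numbered 1 without any of the 3 allografts or liver control replicate 1 and 2 without liver control replicate 2, and at POD8 they numbered 1 without allograft replicate 1 or 2. Acaa1b, a peroxisomal thiolase, fell there by 1.24 (SE 0.18, adjusted p = 0.000901) and 1.11 (adjusted p = 0.0022), and rose in the heart by 0.56 (adjusted p = 0.0375). Citrate cycle genes fell in 4 of 9 in the heart, with Sdha, a subunit of succinate dehydrogenase, which fell by 1.45 (SE 0.24, adjusted p = 0.000857). In the liver 0 of 9 fell, and 1 of them, Idh3a, rose at POD5 by 0.78 (adjusted p = 0.0371). The heart count was 1 to 4 when single arrays were left out.

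Among 9 regulators, 4 fell and 1 rose in the heart. Esrrg, an orphan nuclear receptor of oxidative tissues, rose by 2.64 (SE 0.31, adjusted p = 8.55e-05). Those that fell were Klf15 by 2.34, Ppargc1a, the coactivator of mitochondrial genes, by 1.45, Ppara by 1.22 (adjusted p = 0.00702) and Rxra by 0.92. In the liver Ppara, the receptor that drives the fasting programme of fatty acid oxidation, fell by 1.20 at POD5 (SE 0.29, adjusted p = 0.0159) and was at -0.85 at POD8 (adjusted p = 0.0785). Genes known to respond to the PPAR receptors, such as that of Ppara, fell in 4 of 10 and rose in 1 in the heart. There, Acot1 fell by 3.10 (SE 0.63, adjusted p = 0.0032) and Cyp4a10 rose by 2.44 (adjusted p = 0.00412). At each hepatic time 2 of the 10 fell and 0 rose. Without single arrays there were 1 to 3 falls at POD5 and 0 to 2 at POD8. In the liver Cyp4a10 fell by 1.88 at POD5 (SE 0.52, adjusted p = 0.0314), and Fgf21, a hormone of the fasted liver, fell by 3.54 at POD8 (SE 0.92, adjusted p = 0.028), where it was well above background on 2 of 3 allograft arrays.

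Some of these single calls were lost when 1 array was left out, with the sign kept. In the heart these were Crat (without allograft replicate 3 or control replicate 2), Acaa1b (allograft 2 or 3, control 1 or 3), Abcd2 (allograft 1 or 2, control 1 or 3) and Ppargc1a (allograft 2 or 3, control 2 or 3), with adjusted p-values of up to 0.118. In the liver at POD5 they were Etfb (allograft 1 or 2, control 1 or 2), Ppara (allograft 1, control 2), and Mlycd, Cyp4a10 and Idh3a (allograft 1 or 3, control 1 or 2), with adjusted p-values of up to 0.124. At POD8 Fgf21 lost its call without allograft replicate 2 or 3 or control replicate 1 or 2 (differences from -4.29 to -2.65, adjusted p of up to 0.116).

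**Figure D4:**
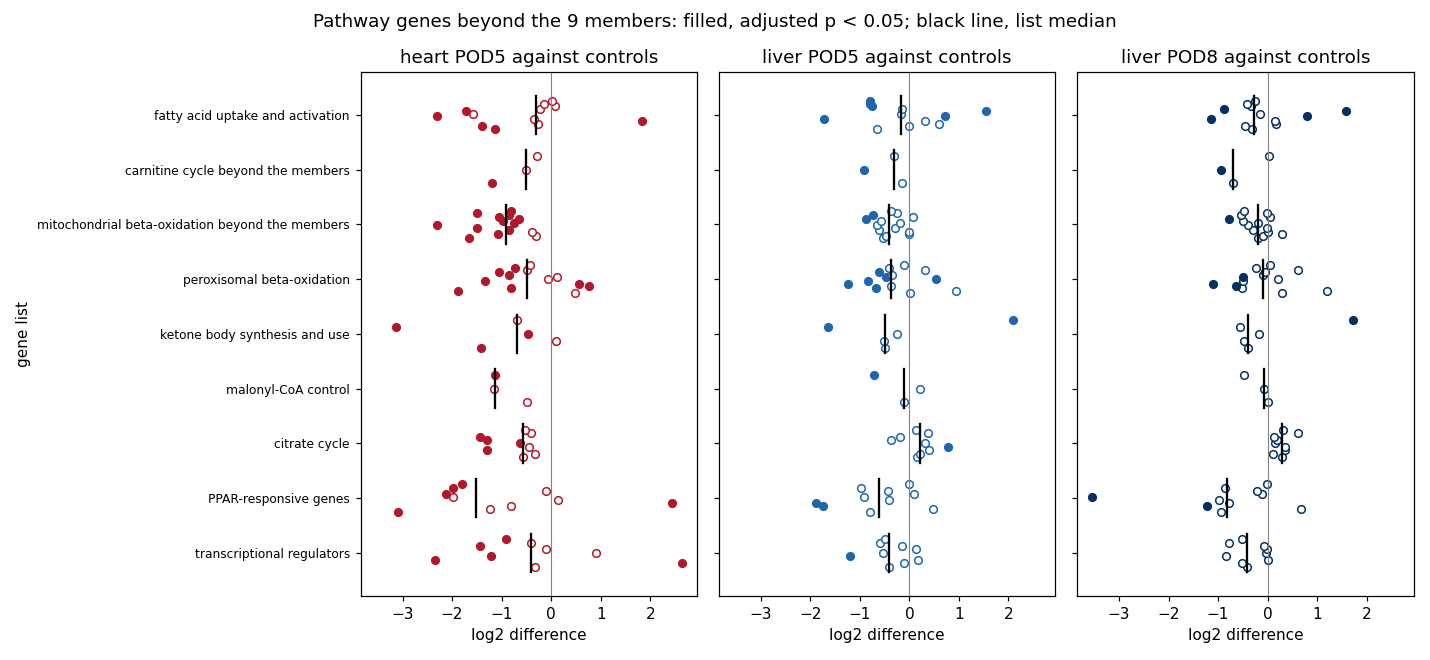
Log2 difference from controls (x axis) of each tested gene of 9 pathway lists (y axis) in cardiac POD5, hepatic POD5 and hepatic POD8 allografts; filled points have an adjusted p below 0.05 in limma and black lines mark list medians. In the mitochondrial beta-oxidation row 12 of 14 cardiac points, 2 hepatic POD5 points and 1 hepatic POD8 point are filled, all left of 0.

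Over the 15 arrays, after subtracting the mean of each organ's controls, the mean profile of the 9 genes ran from -0.65 to -0.90 in cardiac allografts, from -0.39 to -0.46 at hepatic POD5 and from -0.41 to -0.45 at POD8. Heart controls spread from -0.29 to 0.35 and liver controls from -0.16 to 0.24 around their means. The genes with the most similar profile among 21562 others were Ndrg2 (Pearson r = 0.96), Mlycd (0.96), Aldh5a1 (0.96), Hadh (0.95) and Mcrip2 (0.95), given as a description over 15 arrays that share 2 organs and 2 sets of controls. Within the 9 genes, Acadvl tracked the mean of the others most closely (r = 0.95), followed by Hadha and Cpt2 (0.87 and 0.86), while Fabp3 (0.22) and Cpt1a (-0.11) did so least.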

How the data were processed

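Total RNA was labelled with Cy3 and hybridised to 15 single-colour Agilent arrays, read with Feature Extraction 10.5.1.1. The deposited value of a spot was its processed signal, an intensity on a linear scale after the software's background subtraction, beside median spot and background signals and quality marks. Outlier spots (47 to 113 on each array) were dropped, spots of a probe were averaged on the log2 scale, and arrays were quantile normalized. A probe counted as well above background on an array when at least 0.5 of its spots carried that mark. Probes were named through RefSeq (GRCm38.p6), which matched 64.8% of 41174. The 41003 probes with a value on all arrays entered 1 limma fit of 5 groups (limma 3.58.1, R 4.3.3), with Benjamini-Hochberg adjustment over all probes. A gene was read from its brightest probe, and a group with no array well above background gave only a bound, from the lowest signal well above background on each array. The precision is limited by 3 arrays a group.

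Named were all members, in each list the gene that differed most among those called in each comparison with controls, and the 5 most similar profiles; further pathway and marker genes were chosen after their values were seen. Members, lists and tests were chosen with earlier results of these data known. Fabp5, Fh1, Cps1, Cd68 and Cfd of the lists were not analysed here. A result on a listed gene is not reported here. The fit was tested on simulated data. Alternatives were scaling to the 75th percentile, quantile normalization within each organ, normexp with an offset of 50 on median signals, a filter on dim probes, kept outlier spots, another prior, blocks for slide or replicate number, SFC (bins of 1000 probes, with 0.455 as the chi-square median), the methods' t-test, Bonferroni adjustment, the mean of a gene's probes, and leaving out each array. Those for the pathway lists and their genes were chosen after seeing the data. Figures were drawn with matplotlib 3.10.9.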

Additional observations from a re-analysis of the deposited data

Results flagged for a closer look

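The difference between the organs at POD5 was tested for all 9 genes, and the 4 listed here are those called by limma. The cardiac minus the hepatic log2 difference was 1.25 for Cpt1a (adjusted p = 0.0213), -1.3 for Acadm (adjusted p = 0.00968), -1 for Acadl (adjusted p = 0.0468) and -1.03 for Hadhb (adjusted p = 0.0193). Organ, strain combination, operation and slide differ together in this comparison, and their parts were not tested.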

How the results depend on the processing

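Of 875 values of single genes under another setting, 756 kept their direction and side of the threshold, 88 lost and 13 gained a call, and 18 changed sign. Between the organs only Cpt1a, Acadm, Acadl, Hadha and Hadhb entered this count, and between the hepatic times only Cpt1a and Fabp3. Genes that stayed uncalled count as kept, as did 181 values at POD8, where no gene was called. Cpt2 at hepatic POD5 lost its call in 12 of 20 settings. Scaling to the 75th percentile called 4 genes in the liver at POD5, 3 at POD8 and 1 between the organs, beside 23.7%, 36% and 43.7% of all genes. Only the arrays compared gave 0 at hepatic POD5 and a random slide block 1. Bonferroni adjustment gave 0 in the heart, 0 at hepatic POD5, 4 between the controls and 0 between the organs, SFC 0, 0 and 1 in the first 3 of these, the methods' t-test 0, 0 and 1, and with Benjamini-Hochberg adjustment 1, 0 and 5; the cause was not tested. Without single arrays the counts were 5 to 6 (heart), 1 to 3 (hepatic POD5), 0 to 1 (POD8), 0 to 0 (between times), 8 to 9 (controls) and 3 to 4 (between organs). With the replicate block the counts were 6, 2, 0, 0, 8 and 3, and Cpt2 at hepatic POD5 (adjusted p = 0.0604) and Acadl between the organs (0.0673) lost and Hadha at hepatic POD5 (0.0463) gained a call. Deviations from the group mean had r from -0.12 to 0.16 between samples of one number and from -0.23 to 0.20 between other samples. With 3 arrays a group, this cannot show whether samples of one number share an origin. Values that changed sign were not called: with scaling to the 75th percentile Fabp3 in the heart (0.087) and Acadm in the liver (-0.24 and -0.33), with normexp (0.07) and SFC (0.065) Fabp3 at hepatic POD5, and Hadhb with a random slide block at POD5 (0.005) and within the slide at POD8 (0). Without single arrays, ranges were -0.009 to 0.283 (Cpt1a) and -0.28 to 0.023 (Fabp3) in the heart, -1.239 to 0.068 (Cpt1b), -0.234 to 0.032 (Acadl), -0.094 to 0.056 (Hadhb) and -0.17 to 0.106 (Fabp3) at hepatic POD5, and -0.025 to 0.195 (Acadm) at POD8. Quantile normalization within organs was not run between the controls, since it does not put heart and liver arrays on a common scale. The 75th percentile of signal was lowest in the liver controls, where the probes of Cpt1b and Fabp3 were dim.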
